A study of Mus musculus with 4 samples.

Results

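Hopx, Trh, Snn and Lpar6 are 4 protein-coding genes that all had lower read coverage in Mettl3 knockout (KO) than in wild-type retinal organoids of the mouse. They were chosen by that difference in deposited gene coverage, from 8242 protein-coding genes with a coverage value of their own in all 4 libraries, so the coverage values below are a description and carry no test. Positions with a called signal inside these genes, on their strand, came to 215 of the 881997 in the lists.

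The samples were organoids at day 4 of differentiation, tissue grown in culture toward retina, in GMEM medium with 5% KSR, a serum replacement, and 0.1 µM AGN. The wild-type group was 2 libraries of Rx:GFP, a line with a fluorescent reporter of Rax, and the KO group was 2 libraries of a Mettl3 KO derivative of Rx:GFP that also carries a doxycycline-inducible HA-METTL3. The treatment field reads "No" for all 4 libraries, and no doxycycline is recorded. The KO is 1 line, so the effect of the knockout and other differences between the lines cannot be told apart, and all 4 libraries carry the same batch label.

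METTL3 is the catalytic subunit of the enzyme that writes N6-methyladenosine (m6A), the most common internal modification of mRNA, and m6A is known to shorten the life of many transcripts through its reader proteins. GLORI, the assay used here, deaminates unmodified adenosine in poly(A) RNA so that it is sequenced as G, while m6A stays A. The level of a site is the fraction of its reads that stayed A, its coverage counts reads showing either base, and the conversion rate of a gene is the share of its adenosine read as G.

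The 4 genes have unlike roles. Hopx encodes a small homeodomain protein that does not bind DNA and instead acts on SRF and histone deacetylases. Trh encodes the precursor of thyrotropin-releasing hormone, a tripeptide best known from the hypothalamus. Snn encodes stannin, a small membrane protein known from the toxicity of organotin compounds. Lpar6 encodes a G-protein-coupled receptor for lysophosphatidic acid (LPA), a lipid signal, and lies inside Rb1 on the opposite strand.

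Positions are given as the lists give them. The submitters' processing notes name mm10, but only 3.31% of 21465 matched features began within 1000 bases of their GRCm38 start, so list positions were not placed on that build. In the frame of the lists, Hopx (ENSMUSG00000059325) is on chromosome 5 from 77234835 to 77262968, minus strand, and Trh (ENSMUSG00000005892) is on chromosome 6 from 92219042 to 92221631, minus strand. Snn (ENSMUSG00000037972) is on chromosome 16 from 10878809 to 10892849, plus strand, and Lpar6 (ENSMUSG00000033446) is on chromosome 14 from 73475335 to 73480734, plus strand. The intron mark deposited with the sites covered 100% of the entries of Hopx, Trh and Lpar6, and 2.11% of those of Snn. Only 1 of 42 Hopx entries and 0 of 95 Snn entries named the gene itself as their feature, so the other marks there came with another feature. The mark was not used, and whether the sites lie in introns was not tested. Exons and untranslated regions were not analysed here. The length in the lists and in the GRCm38 table was 14041 and 8688 bases for Snn, and 5400 and 2468 bases for Lpar6. It was 28134 and 28138 bases for Hopx, and 2590 in both for Trh. Distances from the 3′ end below are those to the end of the list feature, and where the transcripts end was not tested.

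The 4 genes share the direction of their coverage difference because they were chosen by it. Their promoters are shown as a description, from the RefSeq table for GRCm38.p6, each 250 bases before and 50 after the transcription start. All 4 genes matched the table, Hopx with a pair of promoters, of which the one at the outer end of the gene is printed. Capitals mark the letters CCAAT, the CCAAT box, and GGGCGG, the GC box, on either strand. The promoters lie at chr5:77115074-77115373 (minus strand) for Hopx, chr6:92244601-92244900 (minus) for Trh, chr16:11066048-11066347 (plus) for Snn and chr14:73237641-73237940 (plus) for Lpar6.
Hopx: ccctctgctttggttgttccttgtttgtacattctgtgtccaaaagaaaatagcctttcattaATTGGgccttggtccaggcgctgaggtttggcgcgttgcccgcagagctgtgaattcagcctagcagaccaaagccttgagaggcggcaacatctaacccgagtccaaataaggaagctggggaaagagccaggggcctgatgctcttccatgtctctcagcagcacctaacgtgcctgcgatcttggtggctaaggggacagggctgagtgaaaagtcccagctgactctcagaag
Trh: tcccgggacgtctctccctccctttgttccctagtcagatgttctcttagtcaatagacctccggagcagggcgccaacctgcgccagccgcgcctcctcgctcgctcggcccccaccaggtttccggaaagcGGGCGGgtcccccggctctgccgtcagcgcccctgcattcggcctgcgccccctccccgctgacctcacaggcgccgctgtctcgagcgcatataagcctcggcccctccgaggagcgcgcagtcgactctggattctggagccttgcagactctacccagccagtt
Snn: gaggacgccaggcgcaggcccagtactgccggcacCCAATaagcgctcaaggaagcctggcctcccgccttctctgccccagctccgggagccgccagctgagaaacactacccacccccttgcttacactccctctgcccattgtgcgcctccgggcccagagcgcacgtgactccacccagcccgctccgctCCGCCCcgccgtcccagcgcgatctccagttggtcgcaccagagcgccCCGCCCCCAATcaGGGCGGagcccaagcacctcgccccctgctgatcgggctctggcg
Lpar6: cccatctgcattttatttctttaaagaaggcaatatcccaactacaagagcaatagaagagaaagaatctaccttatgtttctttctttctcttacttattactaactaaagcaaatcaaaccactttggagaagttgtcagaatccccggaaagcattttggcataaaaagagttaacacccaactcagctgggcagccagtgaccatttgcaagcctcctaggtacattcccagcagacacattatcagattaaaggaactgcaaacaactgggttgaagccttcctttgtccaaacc

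These promoters had little in common at the level of base composition. The G and C content was 53.0% for the printed Hopx promoter, 59.0% for its second promoter, 67.0% for Trh, 70.3% for Snn and 40.0% for Lpar6, against a median of 52.7% over all 32851 promoters of the table. Both strands were searched for 5 motifs, and no matches overlapped each other. CCAAT was in both Hopx promoters, on the minus strand 187 and 188 bases before the start, and in the Snn promoter 215 and 2 bases before the start, and 37.4% of all promoters hold it. GGGCGG was in the Trh promoter once, 117 bases before the start, and in the Snn promoter 3 times, and 35.7% of all promoters hold it. TATAAA, the TATA box, TGACGTCA, the cAMP response element, and TAATTA, a core of homeodomain sites, were in 0 of the 5 promoters, and 13.6%, 1.79% and 5.29% of all promoters hold them.

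Site numbers per list were 227298 and 288516 for wild-type replicates 1 and 2 against 230299 and 215850 for the KO, at median site coverages of 38 to 41 reads. Every listed site had at least 15 reads, 5 of them unconverted, and a level of at least 0.1. The authors' p-value of a listed site, whose test is not stated, was at most 0.004. Absence from a list thus mixes a low level or a p-value past that limit with thin coverage, and does not mean full conversion. The targeted gene Mettl3 had 18 and 15 sites in the wild-type lists against 20 and 21 in the KO lists. Its coverage was 1.01 and 0.801 times the median gene against 1.16 and 1.04 times, and the place of the lesion is not given in the labels, so this coverage does not check the genotype.

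Coverage of all 4 genes was 3.31 to 4.98 times higher in the wild type than in the KO, with no overlap between the groups in any of them. Both KO values lay below both wild-type values in 29.4% of all 8242 genes, and since this measure chose the members nothing is read from it. The gene coverage is the value the authors deposited for each gene, divided here by the library's median gene, which stood at 46.3 to 57.3. In these bulk organoids, fewer cells of a type and less RNA per cell cannot be told apart.

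Hopx had a deposited coverage of 296 and 399 in wild-type replicates 1 and 2 and of 69.9 and 58.8 in KO replicates 1 and 2. Relative to the median gene this was 5.89 and 6.97 against 1.31 and 1.27. The means were 6.43 ± 0.765 and 1.29 ± 0.0289 (SD, n = 2 each), a ratio of 4.98, and both KO libraries were still above their median gene. Trh, the hormone precursor, had a deposited coverage of 224 and 254 in wild-type organoids against 46.4 and 47.4 in KO organoids. Its relative coverage was 4.45 and 4.44 against 0.869 and 1.02, so that the KO libraries lay on either side of the median gene. The means were 4.45 ± 0.0131 and 0.946 ± 0.109 (SD, n = 2 each), a ratio of 4.70.

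Snn, encoding stannin, had a deposited coverage of 163 and 188 in wild-type organoids against 38.3 and 31.1 in KO organoids. In relative terms it stood at 3.25 and 3.27 against 0.718 and 0.672, from above the median gene in the wild type to below it in the KO. The means were 3.26 ± 0.0188 and 0.695 ± 0.0325 (SD, n = 2 each), a ratio of 4.69. Lpar6, the LPA receptor, had a deposited coverage of 106 and 122 in wild-type organoids against 35.8 and 28.0 in KO organoids. Its relative coverage was 2.10 and 2.13 against 0.670 and 0.604. With means of 2.11 ± 0.0202 and 0.637 ± 0.0468 (SD, n = 2 each) and a ratio of 3.31, Lpar6 differed least of the 4 genes.

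**Figure D1:**
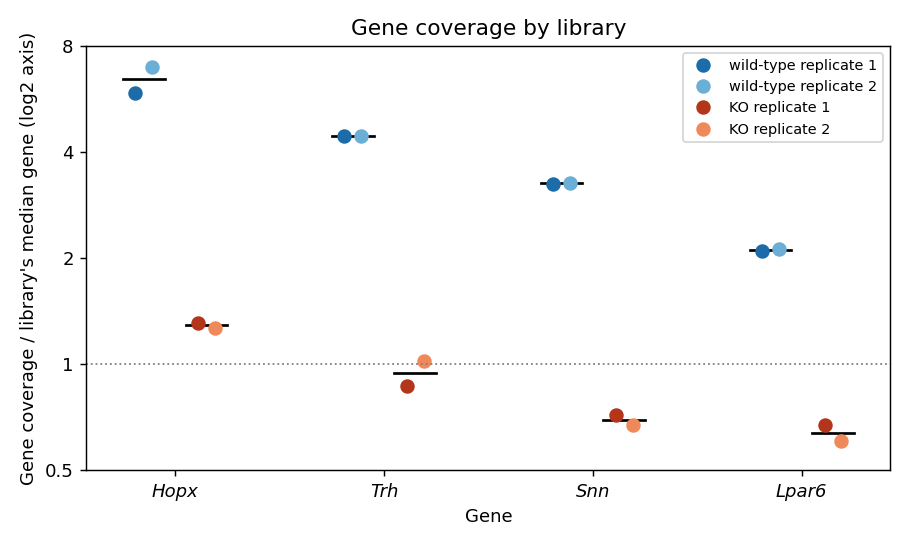
Gene coverage of Hopx, Trh, Snn and Lpar6 over the library's median gene, on a log2 axis; each point is 1 library, black bars are means of 2 libraries and the dotted line is the median gene. In each gene both KO points lie below both wild-type points, and for Hopx they stand at 1.31 and 1.27 against 5.89 and 6.97.

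The order of the relative coverages in the wild type was Hopx, Trh, Snn and Lpar6, and the values of neighbours did not overlap. In the KO the order of the means was the same, and the lower Snn value, 0.672, was next to the higher Lpar6 value, 0.670, so that these neighbours did not differ beyond their spread. How the authors computed gene coverage from length is not given in the sources used here, so this order is one of deposited values and not of transcript numbers. By the mean over the wild-type libraries the genes stood at percentiles 96.5, 93.7, 89.7 and 80.6 of the 8242 genes, and by the mean over the KO libraries at 64.2, 46.7, 24.5 and 18.3.

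In the fit over all genes (limma on log2 relative coverage), the log2 change from wild type to KO was -2.31 ± 0.18 for Hopx, -2.24 ± 0.17 for Trh, -2.23 ± 0.16 for Snn and -1.73 ± 0.16 for Lpar6 (SE). These were the 4th, 5th, 6th and 13th largest falls of 8242 genes, whose median change was -0.02. Genes without a value in all 4 lists, among them Rax with no listed site in the KO, were not ranked. All 4 members were among the 281 genes called lower, which are 3.41% of the genes tested, and since this contrast chose them nothing is read from that count. Of all genes, 29.4% had no overlap between the groups with the KO lower. The last gene inside the threshold by adjusted p was Atp6v1b2 at -0.72 and the first outside it was Smim20 at -0.89. The count of lower genes was 178 without wild-type replicate 2, 47 without KO replicate 1 and 39 without KO replicate 2.

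Listed sites of the 4 genes were fewer in the KO, 42 and 44 against 74 and 91 in the wild type, a count that depends on coverage and is likewise a description. Hopx had 16 and 13 listed sites in wild-type organoids against 3 and 10 in KO organoids. Trh had 13 and 16 against 12 and 5, Snn 23 and 36 against 17 and 19, and Lpar6 22 and 26 against 10 and 10. Counted by position, some sites of Hopx, Snn and Lpar6 were deposited with a value that spanned the chromosome and not with one of their gene. Among them was the Snn site with 131 reads in KO replicate 1. In these site counts the groups did not overlap for any of the 4 genes, and in 25.9% of all genes both KO lists held fewer sites than either wild-type list. The median coverage of those sites was 84 and 138 reads against 57 and 39 for Hopx, and 131 and 277 against 42.5 and 28 for Trh. It was 90 and 116 reads against 27 and 22 for Snn, and 118.5 and 115.5 against 32.5 and 20 for Lpar6. For Hopx this site measure gave a log2 difference of -1.21, smaller in size than the -2.32 from the ratio of mean gene coverages.

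The median level of listed sites was higher in both KO libraries than in both wild-type libraries for 3 of the 4 genes, and in 12.3% of all 8242 genes. Site coverage bears on this measure, so nothing about the members is read from that count. It was 0.165 and 0.180 against 0.193 and 0.285 in Hopx, 0.160 and 0.121 against 0.207 and 0.348 in Trh, and 0.158 and 0.173 against 0.294 and 0.318 in Snn. In Lpar6 it was 0.293 and 0.231 against 0.171 and 0.342, with the KO values on either side of the wild type. With 15 reads, 5 unconverted reads give a level of 0.333, so a thinly covered site enters a list only at a high level, and the part of this in the medians was not tested. Levels of 0.5 or more occurred in the KO libraries at 4 sites of Hopx, 2 of Trh, 7 of Snn and 1 of Lpar6, each with fewer than 50 reads.

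**Figure D2:**
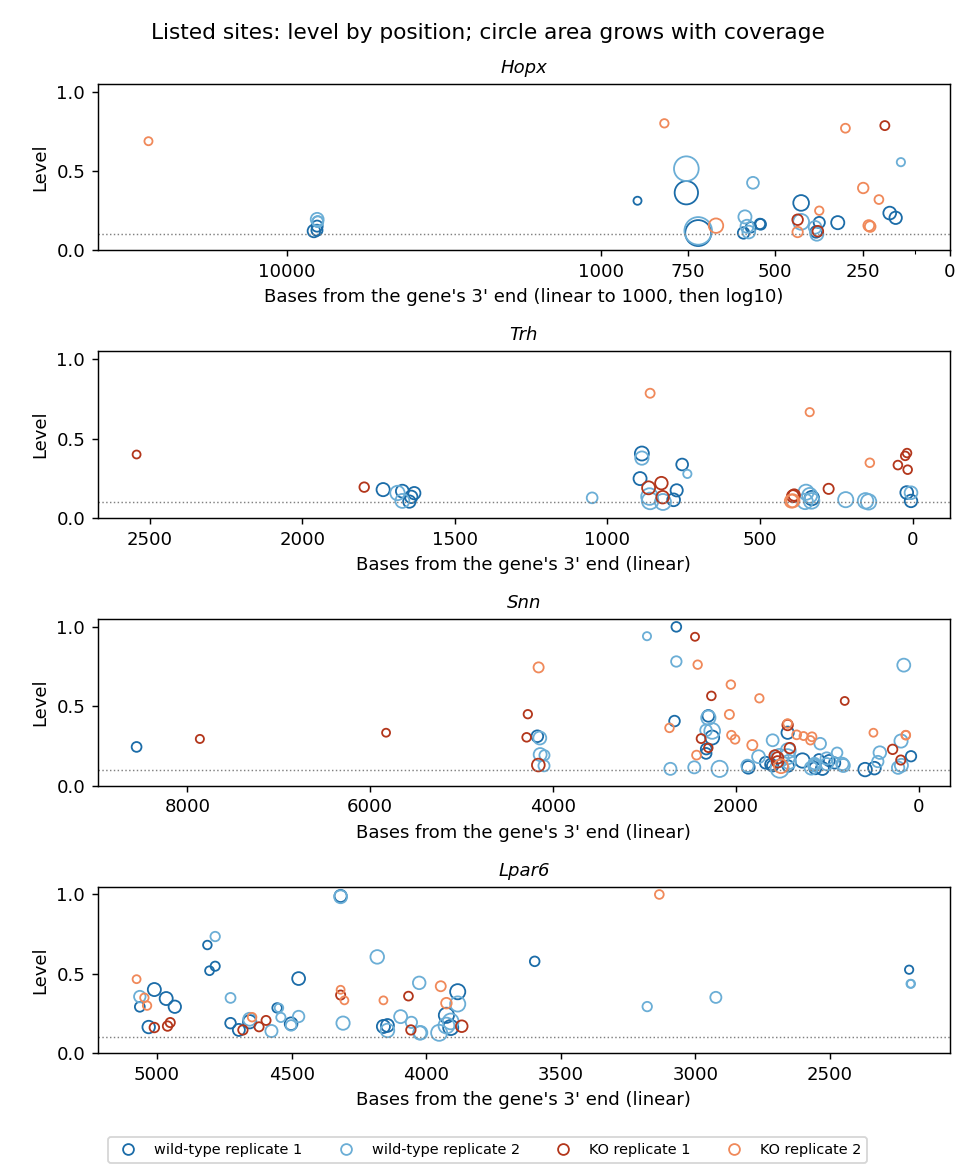
Level of every listed site of Hopx, Trh, Snn and Lpar6 against its distance in bases from the 3′ end of the gene, one circle per site and library, with circle area growing with coverage and the dotted line at the lowest listed level of 0.1. The largest circles are a pair of Hopx positions 721 and 755 bases from the 3′ end, seen in both wild-type libraries only.

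Hopx sites clustered near the 3′ end. Within the last 1000 bases lay 13 of 16 and 10 of 13 listed sites in the wild type and 3 of 3 and 9 of 10 in the KO. The other wild-type sites stood about 8 kb from the 3′ end, between 7969 and 8203 bases, with 61 to 138 reads, and the other KO site stood 27597 bases from it with 16 reads. The best covered position of all 4 genes, 77235556, had levels of 0.109 at 2558 reads and 0.123 at 3292 reads in the wild type. Its neighbour 77235590, 755 bases from the 3′ end, was at 0.363 with 1669 reads and 0.514 with 2088 reads. Neither position was in a KO list. Scaling the wild-type site coverage by the ratio of gene coverages gave an expected 380 and 319 KO reads at 77235590. At an unchanged level this passes the minimums of reads and unconverted reads, while the limit on the authors' p-value was not modelled. In KO replicate 2 the nearest listed site, 63 bases away, had 20 reads, while another at 77235505 had 225 reads, and KO replicate 1 had no listed site within 100 bases.

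The third Hopx site shared by the wild-type libraries, 77235261, had levels of 0.299 at 318 reads and 0.180 at 334 reads. It was in neither KO list, although a site 10 bases away, 77235271, was listed in both with 57 and 52 reads. That neighbour had levels of 0.193 and 0.115 and was the only Hopx site shared by the KO libraries. Coverage 10 bases from the wild-type site was thus above the listing minimum of 15 reads in the KO. The KO coverage of the site itself is not in the lists, and why it was absent was not tested.

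Trh sites lay within 1797 bases of the 3′ end, apart from 1 in KO replicate 1 that stood 2543 bases from the 3′ end. The highest level shared by the wild-type libraries was at 92219929, 887 bases from the 3′ end, with 0.406 of 197 reads and 0.377 of 159 reads. It was in neither KO list, where 34.9 and 35.6 reads were expected. Listed KO sites 22 and 27 bases from it had 142 and 28 reads. The other shared wild-type sites were weak, 92219047 at 0.107 and 0.159 and 92220714 at 0.169 and 0.108. The KO libraries shared 92219434, at 0.137 of 102 reads and 0.108 of 148 reads.

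At 2 further Trh positions a KO library had the higher level. Position 92219902 was at 0.108 of 409 reads in wild-type replicate 2 and 0.786 of 28 reads in KO replicate 2, and 92219379 was at 0.142 of 260 reads and 0.667 of 18 reads in the same libraries. Neither was listed in the other library of its group, so these differences have no replicate and no test. The KO reads behind them were 28 and 18.

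Snn had most of its sites within 3000 bases of the 3′ end, 21 of 23 and 32 of 36 in the wild type and 12 of 17 and 18 of 19 in the KO. Among 6 sites shared by the wild-type libraries, 10890546 had levels of 0.440 at 91 reads and 0.428 at 215 reads, and 0.238 at 21 reads in KO replicate 1. It was the only one of the 6 with a KO entry. Position 10890588, 42 bases further along, was at 0.303 of 198 reads and 0.345 of 325 reads and in neither KO list, where 56.5 and 45.8 reads were expected. The highest of these 6 in level was 10890196, with 1.00 of 39 reads and 0.782 of 55 reads. There only 10.2 and 8.28 KO reads were expected, under the minimum of the lists.

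The KO libraries shared 1 Snn site. Position 10891413, 1436 bases from the 3′ end, was at 0.333 of 114 reads in wild-type replicate 1, 0.382 of 55 reads in KO replicate 1 and 0.391 of 23 reads in KO replicate 2. It was not listed in wild-type replicate 2, although sites 2 and 6 bases away, 10891411 and 10891419, were listed there with 280 and 263 reads at levels of 0.182 and 0.221. The wild-type libraries thus differed at this position, and with 1 wild-type value there was no test of it.

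Lpar6 held the only position of the 4 genes that was in all 4 lists, and its level was lower in the KO. At 73476416, 4318 bases from the 3′ end, 106 of 107 reads (0.991) and 136 of 138 reads (0.986) were unconverted in the wild type. In the KO this was 11 of 30 reads (0.367) and 6 of 15 reads (0.40). KO replicate 2 was thus at the listing minimum of 15 reads, where 5 unconverted reads make 0.333 the lowest level that can be listed. The Wilson 95% intervals, which cover counting error only, were 0.949 to 0.998 and 0.949 to 0.996 in the wild type and 0.219 to 0.545 and 0.198 to 0.643 in the KO. The wild-type levels were thus close to complete and the groups did not overlap.

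This level was not used to choose the gene and could be tested. Only sites in all 4 lists could enter, so sites that fell below the listing limits in the KO were left out. The planned test needed 20 reads in every library, which left 1557 sites and none of the 4 genes. There 40 sites, 2.57%, were lower in the KO and 0 higher (edgeR's quasi-likelihood test with Benjamini-Hochberg adjustment), with 90 and 30 at an unadjusted p under 0.05, and limma gave 34 and 0. Without that minimum, 1690 sites entered, of which 45, 2.66%, were lower and 0 higher, with 100 and 31 at an unadjusted p under 0.05 and 36 and 0 by limma. The Lpar6 site was among the 45, with a log2 change in the odds of an unconverted read of -6.92 and an adjusted p of 0.000636 (edgeR's quasi-likelihood test). limma on log2 odds gave -6.61 ± 0.52 (SE) with an adjusted p of 0.00419. Leaving out 1 library at a time gave edgeR adjusted p-values of 0.00713 to 0.0529, and the highest, without KO replicate 1, no longer passed the threshold of 0.05.

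The other Lpar6 sites lay mainly between 3868 and 5076 bases from the 3′ end of its 5400-base feature. Among the 11 sites shared by the wild-type libraries, 73476851 was at 0.388 of 276 reads and 0.310 of 277 reads and in neither KO list. Listed KO sites 15 and 42 bases from it had 88 and 57 reads, and 87.5 and 68.4 reads were expected at it. Position 73476809 was at 0.239 of 280 reads and 0.175 of 332 reads in the wild type and at 0.316 of 57 reads in KO replicate 2. Position 73476260 was at 0.471 of 136 reads and 0.232 of 82 reads and in neither KO list. Position 73475724 was at 0.401 of 147 reads in wild-type replicate 1 and 0.162 of 37 reads in KO replicate 1. Where a single KO library had a value, it was thus below the wild type at some positions and above it at others, with no replicate and no test.

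The wild-type libraries shared 23 sites in the 4 genes, of which 20 were in neither KO list, 87.0% (Wilson 95% interval 67.9 to 95.5). Over all genes with coverage in all lists it was 84.2% of 21607 sites, so the share in the 4 genes lay near the background. By gene it was 3 of 3 in Hopx, 3 of 3 in Trh, 5 of 6 in Snn and 9 of 11 in Lpar6. A second count kept only sites expected to pass the minimums of reads and unconverted reads in both KO libraries at an unchanged level. The limit on the authors' p-value was not part of it. Of these, 11 of 14 were in neither list, 78.6% (52.4 to 92.4), against 83.8% of 20630 over all genes. Both intervals include the share over all genes. They treat sites of the same 4 genes and libraries as independent, so this is a description and no test.

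**Figure D3:**
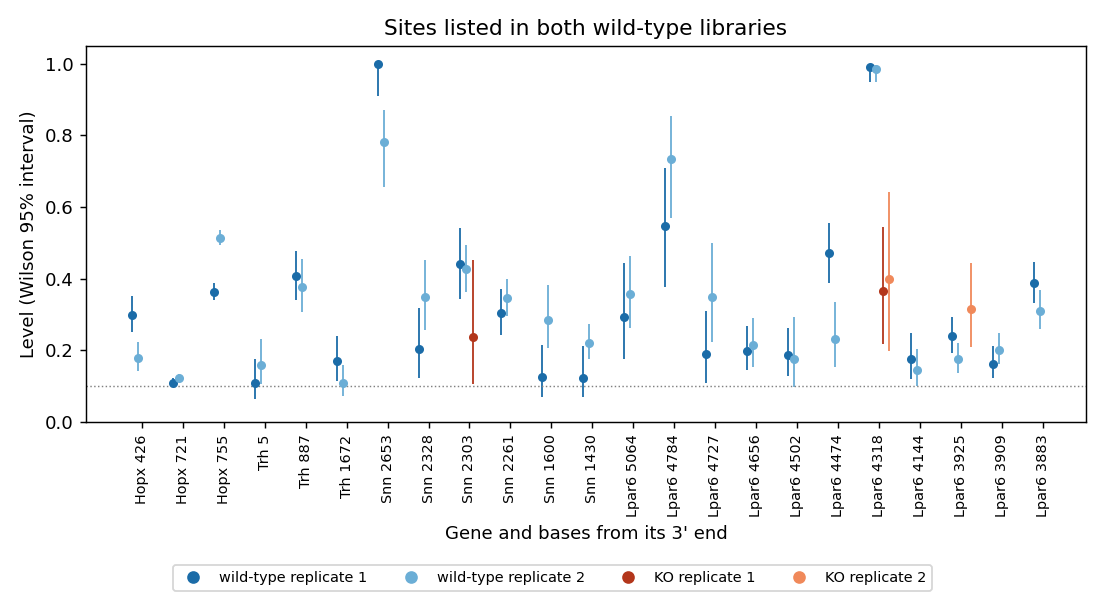
Levels of the 23 sites of Hopx, Trh, Snn and Lpar6 listed in both wild-type libraries, named by gene and bases from the 3′ end, with Wilson 95% intervals and the dotted line at the lowest listed level of 0.1. KO points exist at 3 sites only, and at the Lpar6 site 4318 bases from the 3′ end both KO points lie below both wild-type points.

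The conversion rate of a gene, which the choice of members did not use, was higher in both KO libraries than in both wild-type libraries in 3 of the 4 genes. It was higher in this sense in 50.0% of all genes. Lpar6 stood apart in the wild type with 93.928% and 93.803%, the lowest of the 4 genes, and reached 98.105% and 96.884% in the KO. Its difference of 3.63 percentage points was at percentile 97.5 of all genes, whose median change was 0.632 points. Snn stood at 95.618% and 95.917% in wild-type organoids against 97.679% and 97.316% in KO organoids, a difference of 1.73 points at percentile 82.2. For Hopx the rates were 96.130% and 96.302% against 98.169% and 97.345%, a difference of 1.54 points at percentile 78.3. Trh was the exception, with 96.112% and 95.909% against 95.870% and 97.407%, so that its KO libraries lay on either side of the wild type. Its mean difference was 0.628 points, at percentile 49.7.

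No gene passed the threshold for conversion rate. limma on log2 odds called 0 of 8242 genes (0%) in either direction, while 1659 were higher and 49 lower at an unadjusted p under 0.05. The log2 odds differed by 1.39 ± 0.30 in Lpar6 (SE; limma adjusted p = 0.137), 0.79 ± 0.21 in Snn (adjusted p = 0.146) and 0.80 ± 0.25 in Hopx (adjusted p = 0.172). The difference in Trh was 0.29 ± 0.29 (limma adjusted p = 0.602). An unadjusted p under 0.05 with a higher KO rate was thus found in 3 of the 4 members and in 20.1% of all genes. Centring each library on its median gene left limma adjusted p-values of 0.335 for Lpar6, 0.362 for Snn and 0.385 for Hopx.

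**Figure D4:**
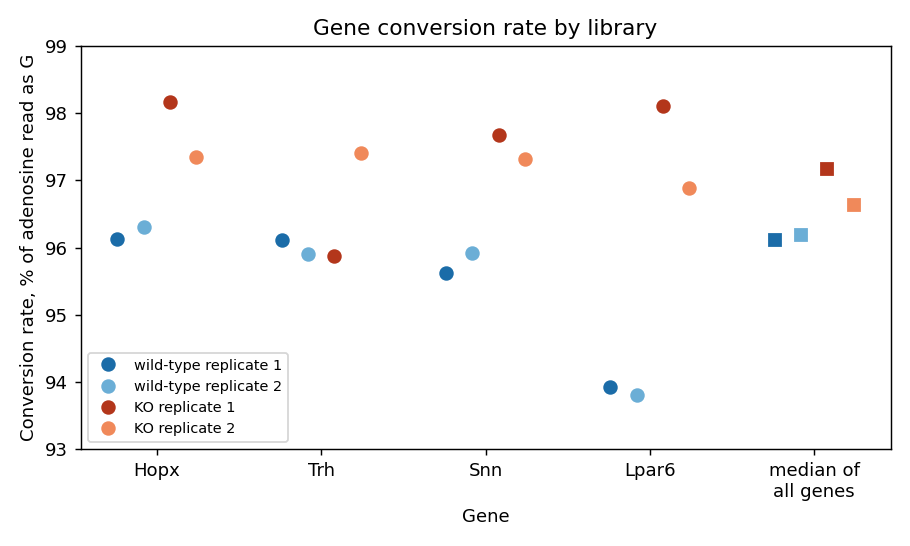
Conversion rate in percent of Hopx, Trh, Snn and Lpar6 (circles) and the median of all genes with a value in all 4 libraries (squares), 1 point per library; the axis starts at 93%. Lpar6 has the lowest wild-type values, 93.928% and 93.803%, and Trh is the only gene whose groups overlap.

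Genes most like the members in coverage pattern were sought by the smallest Euclidean distance over the 4 libraries of log2 relative coverage, each gene centred on its own mean. Hopx was nearest to Snn at 0.187, Trh at 0.276 and Fezf1 at 0.301. Trh was nearest to Fezf1 at 0.101, and Snn was nearest to Hopx at 0.187 and Fezf1 at 0.189. Fezf1 encodes a zinc-finger transcription factor of the forebrain, and its relative coverage was 6.57 and 6.12 in wild-type organoids against 1.31 and 1.45 in KO organoids. Lpar6 stood apart from the other members, at distances of 0.50 to 0.607, and its neighbours were Sparc at 0.127, Gng3 at 0.186 and Efnb2 at 0.240. Sparc, a secreted matrix glycoprotein, stood at 6.14 and 6.26 against 1.98 and 1.97, Gng3, a G-protein gamma subunit, at 2.53 and 2.54 against 0.936 and 0.733, and Efnb2, an ephrin ligand, at 5.83 and 6.58 against 1.70 and 1.87. Likeness was measured over 4 libraries only and follows mainly the size of the difference between the groups.

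The genes around Lpar6 and Snn were read from the same fit. Rb1, the tumour suppressor gene that contains Lpar6 on the other strand, had relative coverages of 0.937 and 0.996 against 0.675 and 0.617, a log2 change of -0.58 ± 0.16 (SE; limma adjusted p = 0.0472). The change of Lpar6 in this fit was -1.73, and the difference between these changes was not tested. Txndc11, which overlaps the end of Snn on the minus strand, was at 0.838 and 0.805 against 0.979 and 0.803, a log2 change of 0.11 ± 0.16 (limma adjusted p = 0.732). The Hopx antisense gene Hopxos had 0, 2, 0 and 0 listed sites in wild-type replicates 1 and 2 and KO replicates 1 and 2.

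LPA acts through its receptors on G12 and G13 proteins, RHOA and YAP, and is made and removed by extracellular enzymes. Of 20 genes of this pathway other than Lpar6, 14 were in the coverage fit, and 0 were lower and 2 higher in the KO, against 3.41% lower and 3.06% higher of all genes. Plpp2, a lipid phosphatase that degrades LPA, was at 0.458 and 0.525 against 0.956 and 0.868, a log2 rise of 0.89 ± 0.17 (SE; limma adjusted p = 0.00983). Gna13, the alpha subunit of G13, was at 0.823 and 0.903 against 1.36 and 1.33, a rise of 0.64 ± 0.15 (limma adjusted p = 0.0305). Of the other receptors, Lpar1 was at 1.07 and 1.24 against 0.791 and 0.806, -0.53 ± 0.16 (limma adjusted p = 0.0661), and Lpar4 at 0.914 and 1.11 against 0.830 and 0.749, -0.35 ± 0.16 (limma adjusted p = 0.219). Lpar2 stood at 1.04 and 0.964 against 0.819 and 1.45, with overlapping groups. Lpar3, Enpp2 and Pla1a had no site in any list, and the median of the 14 log2 changes was -0.04. The count of 2 became 1 without either wild-type library or without scaling, and 0 without either KO library.

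Pro-TRH is cut by prohormone convertases and trimmed by carboxypeptidases, and TRH acts through G-protein-coupled receptors. Of 21 genes of its processing and response, 9 were in the fit, with 1 lower and 0 higher, against 3.41% and 3.06% of all genes. That gene was Cpe, carboxypeptidase E, at 4.02 and 4.23 against 2.87 and 2.30, a log2 fall of -0.68 ± 0.18 (SE; limma adjusted p = 0.0447). It was not called without scaling or with any 1 library left out. Furin, a convertase, was at 1.46 and 1.47 against 1.86 and 2.16, 0.45 ± 0.17 (limma adjusted p = 0.123), and the median of the 9 log2 changes was 0.23. Both TRH receptor genes, Trhr and Trhr2, and Trhde, which degrades TRH, had no site in any list, as did Chgb, Qpct, Scg2 and Thrb.

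HOPX works with SRF and histone deacetylases, and the list drawn up for it also holds homeobox genes of the early forebrain and eye. Of 23 genes, 15 were in the fit, 3 lower and 0 higher, against 3.41% and 3.06% of all genes, with a median log2 change of -0.29. All 3 were homeobox genes of the eye and forebrain, put on the list with earlier results of these data known. The same 3 genes return among the eye field markers below, and nothing about HOPX is read from this count. Six3 was at 16.3 and 17.6 against 1.80 and 2.45, a log2 fall of -3.01 ± 0.20 (SE; limma adjusted p = 7.97e-06), and Lhx2 at 4.26 and 4.61 against 0.636 and 0.629, -2.81 ± 0.16 (limma adjusted p = 1.88e-06). Hesx1 was at 5.25 and 5.42 against 1.20 and 0.717, -2.52 ± 0.22 (limma adjusted p = 6.01e-05). None of the named partners passed the threshold. Hdac1 was at 1.63 and 1.85 against 1.32 and 0.861, -0.70 ± 0.20 (limma adjusted p = 0.0594), and Srf was at 1.29 and 1.43 against 1.35 and 1.12.

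Markers of the cells that organoids can hold moved in the same libraries, and their part in the coverage of Hopx, Trh, Snn and Lpar6 was not tested. Of 7 eye field markers, 4 were in the fit, Six3, Lhx2 and Hesx1 were lower, and Pax6 was not called at 0.12 ± 0.17. The summed relative coverage of those 4 was 28.0 and 29.9 in wild-type organoids against 6.25 and 6.03 in KO organoids. Rax had 20 and 35 listed sites in wild-type organoids against 0 and 0 in KO organoids, and Six6 had none in any list. The sum over 3 of 4 neural progenitor markers was 14.7 and 15.8 against 10.8 and 8.88, with Sox2 lower, a call lost without scaling and with any 1 library left out. The sum over 5 of 7 pluripotency and epiblast markers was 8.95 and 9.61 against 6.18 and 5.14, with 4 lower, a count that ranged from 0 to 3 with 1 library left out. The sum over 2 of 5 markers of neural crest and surface ectoderm was 1.76 and 1.59 against 1.38 and 1.11, with Krt18 lower, a call lost without either KO library. The sum over 2 of 4 markers of midbrain and hindbrain was 1.24 and 0.974 against 2.25 and 2.92, with Wnt1 higher by 2.16 ± 0.21 (SE; limma adjusted p = 0.000105). Other fitted markers were not called: Sox1 at -0.15 ± 0.17, Nes at -0.16 ± 0.19 and Dnmt3b at -0.60 ± 0.17. Nor were Foxd3 at -0.09 ± 0.17 and En1 at 0.40 ± 0.17. Of all genes, 3.41% were lower and 3.06% higher. No mesoderm or endoderm marker was in the fit, and T, Mesp1, Mixl1, Sox17, Cer1 and Gata6 had no site in any list.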

How the data were processed

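The members and gene lists were chosen with earlier results of these data known. GLORI was run on poly(A) RNA of 4 organoid libraries, and 1 site list of each library was deposited. Its columns, per the file headers, are counts of A plus G reads and of A reads, the fraction that stayed A, and the authors' p-value, whose test is not stated. The authors also deposited with each site a coverage signal and a conversion fraction of its gene. Aligner and caller are not given in the sources used here, and mm10 is named per the submitters' processing notes.

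Between 28 and 53 repeated entries per list were collapsed. Values that spanned a chromosome, 21 or 22 per library and 18.4% to 24.3% of sites, were not taken as gene values, and genes with more than 1 own value, 255 to 298 in a library, were dropped. A site belonged to a gene when it lay inside the gene's deposited start and end on its strand. Snn sites were deposited with another feature, Litaf, and only 1 of the 42 Hopx entries was deposited with Hopx as its feature. The sites of both genes were assigned by position and strand in this way. All 46 Trh entries and all 68 Lpar6 entries were deposited with their own gene.

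Gene coverage was tested with limma 3.58.1 in R 4.3.3 on log2 of coverage over the median gene, and conversion with limma on log2 odds. Site levels were tested with edgeR 4.0.16, by its quasi-likelihood test on A and G counts, with terms for library and genotype. The threshold was a Benjamini-Hochberg adjusted p under 0.05 over all genes or sites. Genes with a coverage under 15 do not occur in the lists. Expected KO coverage was wild-type site coverage times the KO to wild-type ratio of gene coverage. Wilson 95% intervals cover counting error only, since molecular identifier handling is not stated. The labels do not say whether replicates were separate cultures, so p-values measure only the spread between these libraries. The named items were the members with their sites in 2 or more lists or with at least 50 reads, a selection of these in the text, their 3 nearest genes, called genes of the lists, otherwise up to 4 a list whose groups did not overlap, and overlapping genes. Lpar2, Srf, Pax6, Sox1, Nes, Dnmt3b, Foxd3 and En1 were named after their values were seen. Alternatives were other scalings, a pseudocount, filters on low coverage, limma for sites, a replicate block and leaving out each library. Scripts were tested on simulated data. No genome was used, so sequence around the sites was not analysed here.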

Additional observations from a re-analysis of the deposited data

How the results depend on the processing

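Counts of calls moved with the coverage filter, the replicate block and single libraries. Genes lower in coverage in the KO numbered 281, and 446 when only genes at or above the median gene were tested, with 39 to 229 when 1 library was left out. Higher genes numbered 252, then 72 without scaling, which shifted all genes by a median of -0.11, and 35 to 288 with 1 library left out. Sites lower in the KO ranged from 24 to 41 and higher sites from 0 to 2 with 1 library left out. Genes higher in conversion rate numbered 218, and lower genes 1, among those at or above the median gene, which Snn and Lpar6 passed only by their wild-type coverage, and 0 to 74 and 0 to 15 with 1 library left out. The LPA list had 1 call without scaling and 0 to 1 with a library left out, and the TRH list had 0 in both cases. Apart from the smaller sets of genes or libraries, the cause was not tested.

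The log2 ratio of mean coverages for Trh, Snn and Lpar6 was -2.35, -2.34 and -1.83 without scaling. From the median coverage of listed sites it was -1.21 for Hopx, -2.53 for Trh, -2.07 for Snn and -2.16 for Lpar6. With 1 library left out it ranged from -2.43 to -2.19 for Hopx, -2.35 to -2.12 for Trh, -2.28 to -2.18 for Snn and -1.81 to -1.66 for Lpar6. The Lpar6 site ranged from -7.27 to -6.70. The conversion difference of Trh turned to -0.037 after centring and to -0.053 without KO replicate 2, and ranged up to 0.642 with other libraries left out.

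Across genes, the correlation of same-numbered deviations from the group means was -0.03 for coverage and 0.00 for conversion. This cannot show whether libraries were prepared in pairs, which the labels do not say. With the replicate number as a block, 333 genes were lower and 326 higher in coverage, 50 sites were lower and 3 higher, and 46 genes were lower and 604 higher in conversion rate. There Lpar6 had an adjusted p of 0.00273 for conversion rate, and its site one of 0.000383, by limma and edgeR. The site fits of Lpar6 by limma, with a block and with a library left out were chosen after seeing the data. Of all values under an alternative, 90 kept their direction and call, stayed within 1.5 times (counts) or within the replicate spread (untested values). Lost calls and smaller counts came to 19, gained calls and larger counts to 15, other shifts to 11 and turned signs to 2.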
